A study of Homo sapiens with 12 samples.

Results

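INTS13 and ZEB1 were profiled by chromatin immunoprecipitation and sequencing in wild-type HEK293T cells, a human embryonic kidney line, and their peak lists are set against each other here. Each protein had 2 libraries, pulled down with its own antibody from cells with no treatment listed. The whole experiment held 12 samples, among them libraries for 3 further proteins (INTS11, HDGF and ZNF609) and 2 input libraries. The inputs were not used here. A region was called reproducible where overlapping peaks of both replicates of a protein merged into it. By that rule INTS13 had 203599 regions and ZEB1 had 14984, together 218583 of the 325633 reproducible regions of the 5 proteins. The series text states the question as whether INTS13 and the factors that interact with it sit at the same places in the genome.

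INTS13 is a subunit of Integrator, a large complex that associates with RNA polymerase II, cleaves nascent transcripts through its endonuclease subunit INTS11, and also processes small nuclear RNAs. ZEB1 is a zinc-finger transcription factor that binds E-boxes of the form CACCTG, recruits corepressors such as CtBP, and is best known for repressing epithelial genes, CDH1 among them, during epithelial to mesenchymal transition. HDGF and ZNF609 are chromatin-associated and zinc-finger proteins profiled in the same cells.

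Regions were sorted into classes by an overlap of 1 bp or more. ZEB1 regions with INTS13 numbered 13588, which is 90.7% of the ZEB1 regions, and ZEB1 regions without INTS13 numbered 1396 (9.32%). From the other side, 12209 INTS13 regions met a ZEB1 region, which is 5.997% of them, and 191390 (94.0%) did not. By count, nearly all reproducible ZEB1 regions lay on INTS13 regions, while few INTS13 regions carried ZEB1. The sets differ in size, 203599 INTS13 against 14984 ZEB1 regions, which limits how large the INTS13 share can be. The part of set size in these shares was not tested. With the 10000 best peaks of each list, which makes the lists equally long and keeps only strong peaks, the INTS13 share was 46.7% and the ZEB1 share 63.9%. With single lists of one protein as regions, the INTS13 share was 11.99% without ZEB1 replicate 1, 14.4% without ZEB1 replicate 2, and 4.02% and 3.998% without INTS13 replicates 1 and 2. The same overlap taken between single libraries gave lower shares for ZEB1 and higher shares for INTS13. Of the peaks of ZEB1 replicate 1, 79.3% met a peak of INTS13 replicate 1 and 81.2% met a peak of INTS13 replicate 2. For ZEB1 replicate 2 these shares were 73.8% and 76.1%. The mean was 77.6% ± 3.28 (SD, n = 4 pairs of libraries). Of the INTS13 peaks, 8.53% ± 0.981 (SD, n = 4 pairs of libraries) met a peak of a ZEB1 library. With 2 libraries of each protein, a two-sided exact permutation test of the library labels cannot give a p below 0.333, so the classes are described by their values with no test. The deposited lists give no read depth, so the precision of a single peak is unknown.

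These 4 promoters are printed to show the E-box where it was found. The 12 genes with the strongest shared regions had 17 promoters in RefSeq, of which 6 held the motif, and the 4 shown are those of the 6 that met a ZEB1 region with INTS13. They were thus chosen for the motif and are no sample of shared promoters. The 250 bases before a RefSeq gene start (GRCh38.p14) are printed 5′ to 3′ on the gene's strand, and capitals mark CACCTG, the ZEB1 E-box, or its reverse complement CAGGTG. They come from EPHX1 (chr1:225825104-225825353, plus strand), NDFIP2 (chr13:79480905-79481154, plus strand) and 2 starts of GPRIN2 (chr10:46557597-46557846 and chr10:46556417-46556666, minus strand).
EPHX1: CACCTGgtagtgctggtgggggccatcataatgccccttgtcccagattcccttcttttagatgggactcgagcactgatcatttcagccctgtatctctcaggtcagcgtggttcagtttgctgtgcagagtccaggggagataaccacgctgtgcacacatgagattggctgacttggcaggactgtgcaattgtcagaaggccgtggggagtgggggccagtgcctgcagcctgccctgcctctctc
NDFIP2: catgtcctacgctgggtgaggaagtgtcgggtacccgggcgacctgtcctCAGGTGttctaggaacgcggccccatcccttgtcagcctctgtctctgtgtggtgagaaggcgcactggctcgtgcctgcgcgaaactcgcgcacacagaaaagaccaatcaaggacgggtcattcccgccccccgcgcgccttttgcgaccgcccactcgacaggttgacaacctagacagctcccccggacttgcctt
GPRIN2, upstream start: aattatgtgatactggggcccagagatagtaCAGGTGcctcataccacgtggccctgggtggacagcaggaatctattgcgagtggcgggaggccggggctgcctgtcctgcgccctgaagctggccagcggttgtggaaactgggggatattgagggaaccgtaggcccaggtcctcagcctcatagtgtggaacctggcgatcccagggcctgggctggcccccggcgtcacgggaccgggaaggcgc
GPRIN2, downstream start: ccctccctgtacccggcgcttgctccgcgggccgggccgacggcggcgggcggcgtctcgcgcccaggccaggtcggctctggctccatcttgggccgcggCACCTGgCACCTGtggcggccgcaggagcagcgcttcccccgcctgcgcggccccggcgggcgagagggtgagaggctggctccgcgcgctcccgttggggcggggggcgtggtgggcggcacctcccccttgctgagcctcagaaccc

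The motif lay inside the shared region at EPHX1 (region chr1:225819386-225828383) and at the upstream start of GPRIN2 (region chr10:46557177-46560118). At NDFIP2 the motif lay 19 bp outside the region chr13:79480979-79482929. The 2 motifs of the downstream GPRIN2 start lay 16 and 23 bp outside the region chr10:46532111-46556537. The regions at EPHX1, at NDFIP2 and at the upstream start of GPRIN2 are not the strongest ones of those genes. The ranks given further on are those of the strongest, which at GPRIN2 is chr10:46532111-46556537. The letters alone do not separate the classes by much. Of all 34961 RefSeq promoters of 300 bases (250 before and 50 after a start), 7197 (20.6%) held CACCTG on either strand. Among promoters met by a ZEB1 region with INTS13, 145 of 589 (24.6%) held it, against 3031 of 14170 (21.4%) met by an INTS13 region without ZEB1 and 3849 of 19398 (19.8%) met by neither protein. These sets also differed in base composition, with a median GC content of 60.7%, 63.7% and 51.7% in the same order, and the part of composition in the shares was not tested. Promoters met by a ZEB1 region without INTS13 numbered 3, and none of them held the motif.

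The classes without a partner were not empty of the partner's peaks. Of the 1396 ZEB1 regions without INTS13, 307 held a peak of INTS13 replicate 1 alone, 407 held a peak of replicate 2 alone, and 57 held peaks of both that did not merge. The remaining 625 (44.8%) met no INTS13 peak at all. Counting any peak of either INTS13 list, 14359 of the ZEB1 regions (95.8%) carried INTS13 and 4.17% did not. Of the INTS13 regions without ZEB1, 164450 (85.9%) met no peak of either ZEB1 list. A ZEB1 peak of 1 replicate alone was present in 14398 (replicate 1) and 9565 (replicate 2), and 2977 held peaks of both that did not merge. The ZEB1 lists are far shorter, with 52336 and 45291 peaks against 416964 and 341913 for INTS13. The part of list length in the 2 shares without a partner peak was not tested.

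One-to-one pairs of a ZEB1 and an INTS13 region numbered 6477, which is 47.7% of the shared ZEB1 regions and 53.1% of the shared INTS13 regions. Of the ZEB1 regions with INTS13, 11936 (87.8%) met a single INTS13 region, and 7492 (55.1%) lay wholly inside INTS13 regions. The other way round, 9990 (81.8%) of the INTS13 regions with ZEB1 met a single ZEB1 region. The extremes were a ZEB1 region that met 39 INTS13 regions and an INTS13 region that met 40 ZEB1 regions. In all, ZEB1 regions with INTS13 covered 27.7 Mb and those without covered 1.39 Mb. INTS13 regions with ZEB1 covered 49.96 Mb and those without covered 298 Mb.

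Shared regions were the wider ones. The median width was 1276.5 bp for ZEB1 regions with INTS13 and 895 bp for ZEB1 regions without, and 2186 bp for INTS13 regions with ZEB1 against 1136 bp without. Between single lists, ZEB1 peaks with INTS13 were wider in the median by 138 to 145 bp over the 4 pairs of libraries, and INTS13 peaks with ZEB1 by 539 to 931.5 bp. Leaving out either ZEB1 library cut the difference between the ZEB1 classes from 381.5 to 136 bp. Leaving out INTS13 replicate 2 cut that between the INTS13 classes from 1050 to 604 bp. The INTS13 order turned among stronger peaks: among peaks whose −log10 q reached 5 the medians were 2286 bp with ZEB1 and 2985.5 bp without, and with the 10000 best peaks 3766.5 and 5104 bp. Chromosome 13 then held 90.4% and 71.1% of the INTS13 regions with ZEB1. A width of 10 kb or more was reached by 238 ZEB1 regions with INTS13 (1.75%) and by none without. It was reached by 1048 INTS13 regions with ZEB1 (8.58%) and 773 without (0.404%). A wider region has more room to meet another, and how much of the difference this accounts for was not tested.

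**Figure D1:**
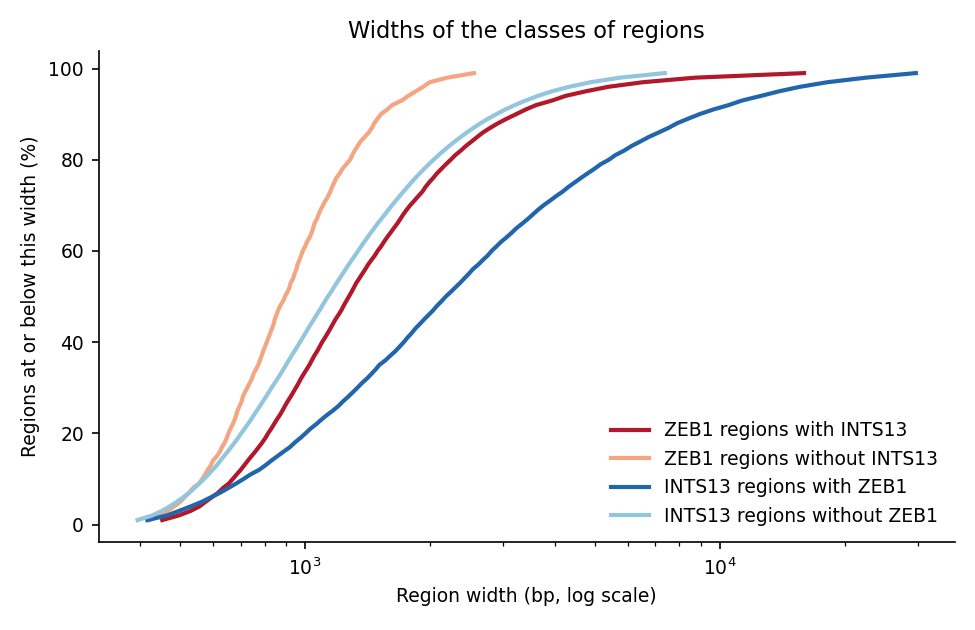
Cumulative share of regions (%, vertical axis) at or below a width (bp, log scale, horizontal axis), from the 1st to the 99th percentile of each class, 1 line a class. ZEB1 regions without INTS13 (median 895 bp) are the narrowest class and INTS13 regions with ZEB1 (median 2186 bp) the widest.

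The share of ZEB1 regions with INTS13 was higher at greater width, from 82.9% in the narrowest quartile (327 to 853 bp) through 88.2% and 93.2% to 98.4% in the widest (1914 bp or more). For INTS13 regions the share with ZEB1 was 2.90%, 3.09%, 4.56% and 13.4% from the narrowest to the widest quartile. The share also followed how densely INTS13 covered the neighbourhood. INTS13 regions covered 11.4% of the bases of an average 1-Mb bin, but 59.8% when bins were weighted by their number of ZEB1 regions. In bins where INTS13 regions covered under 20% of the bases, 71.9% of the 327 ZEB1 regions met one. In bins covered at 60% or more, 96.0% of 8440 did. The steps between were 74.9%, 81.1% and 89.3%. The overlap expected from the cover of a bin was not computed, and how much of these shares it accounts for was not tested.

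**Figure D2:**
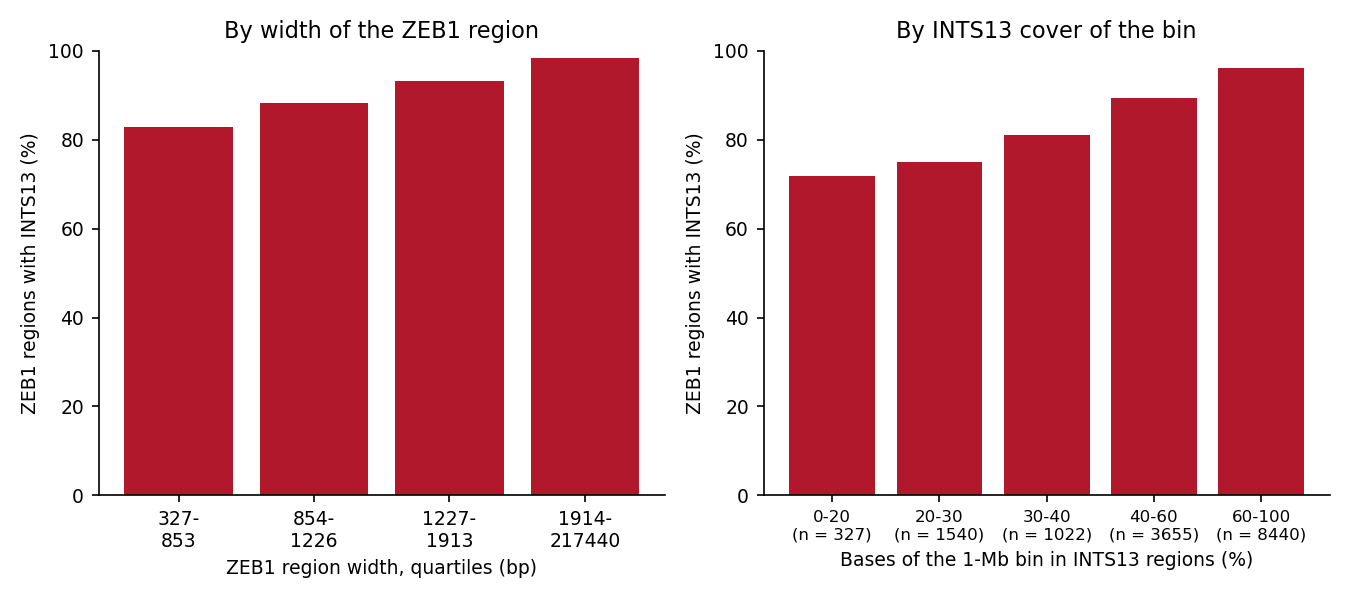
Share of ZEB1 regions that met an INTS13 region (%, vertical axes), by quartile of ZEB1 region width (bp, left) and by the share of the surrounding 1-Mb bin that INTS13 regions cover (%, right, with the number of ZEB1 regions). Bars are single values with no error bar. The left bars climb from 82.9% to 98.4% and the right bars from 71.9% to 96.0%.

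ZEB1 regions crowded into a small part of the genome. Of 3043 bins of 1 Mb, 36 held 50% of them and 131 held 90%, and chromosomes 1, 7, 13, 18 and X held 89.1% of them against 33.6% of INTS13 regions. Chromosome 1 had 5656 ZEB1 regions, of which 95.3% carried INTS13. Chromosome 13 had 5339, of which 85.9% did, and its 754 ZEB1 regions without INTS13 were 54.0% of that class. Chromosomes 18 (1034 regions, 85.9% with INTS13) and X (677, 86.6%) resembled chromosome 13, while chromosomes 7 (646, 95.05%) and 22 (429, 97.0%) resembled chromosome 1. All 257 ZEB1 regions of chromosome 16 carried INTS13. From the INTS13 side, 61.9% of the regions of chromosome 13 carried ZEB1, followed by 20.3% on chromosome 18 and 10.7% on chromosome 1.

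**Figure D3:**
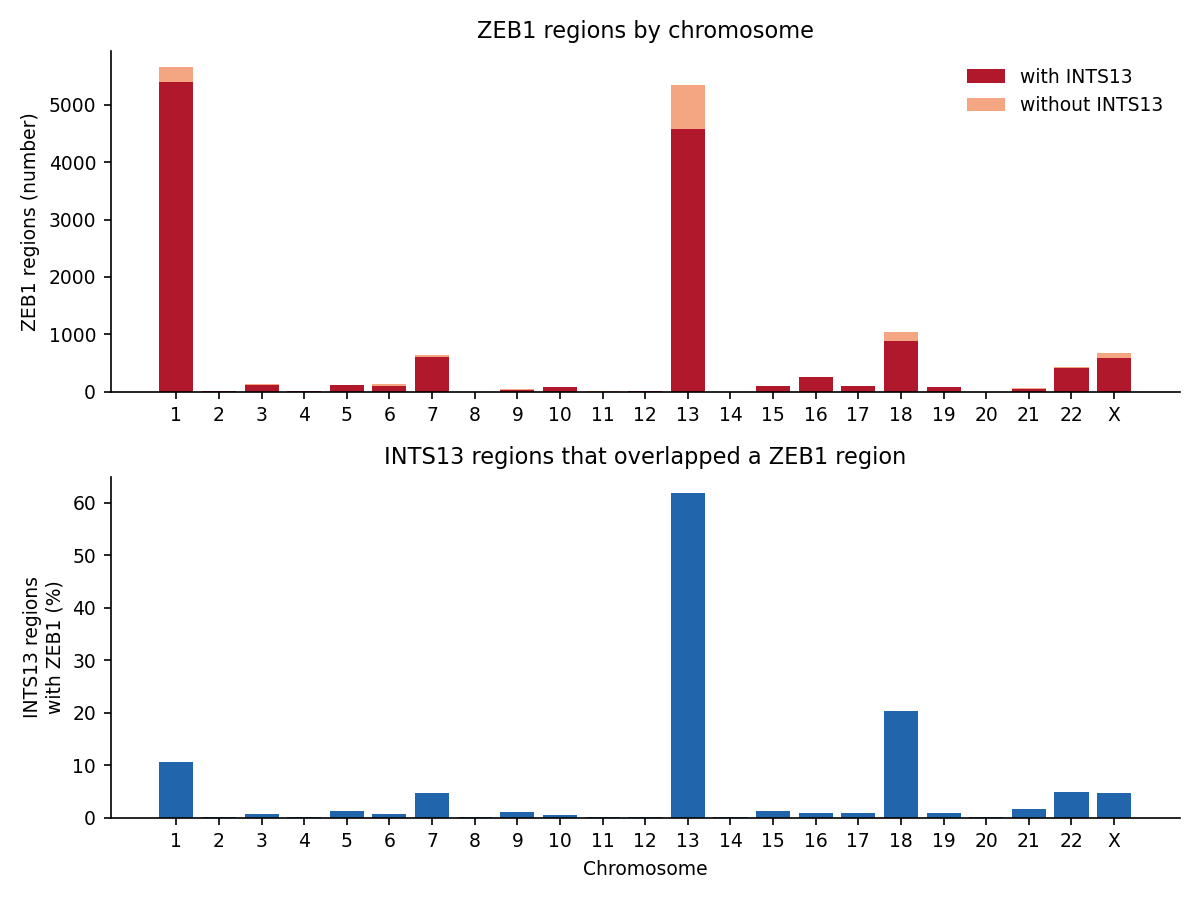
Top, number of ZEB1 regions per chromosome (vertical axis), stacked by whether they met an INTS13 region. Bottom, share of INTS13 regions that met a ZEB1 region (%, vertical axis). Chromosomes 1 and 13 hold 5656 and 5339 ZEB1 regions, and the INTS13 share peaks at 61.9% on chromosome 13.

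Single megabases spelled out the contrast. On chromosome 1 between 226 and 227 Mb, 1 of 279 ZEB1 regions lacked INTS13, and between 32 and 33 Mb none of 243 did. INTS13 regions covered 93.7% and 94.3% of those bins. On chromosome 13 between 71 and 72 Mb, 50 of 262 ZEB1 regions lacked INTS13, and between 70 and 71 Mb 48 of 156 did, with INTS13 cover of 41.8% and 26.1%. Bins were called dense where the median over the 10 peak lists of the experiment exceeded 2 times the list's own average, which held for 382 bins. Dense bins held 97.9% of ZEB1 regions with INTS13 and 95.6% of those without, but 36.9% of INTS13 regions without ZEB1. Outside them ZEB1 had 349 regions, of which 288 (82.5%) met INTS13, against 90.9% inside. For INTS13, 348 of 121198 regions outside dense bins (0.287%) carried ZEB1, against 14.4% inside.

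ZEB1 regions with INTS13 lay nearer to genes than those without. A region was placed at a gene end where it came within 1 kb of either end of a protein-coding or long non-coding RNA gene. This held for 1629 ZEB1 regions with INTS13 (11.99%) and 46 without (3.30%). Over the 4 pairs of libraries, ZEB1 peaks with INTS13 exceeded those without by 5.98 percentage points ± 1.15 (SD). The difference between the region classes, 8.69 points, was 5.52 points without ZEB1 replicate 1 and 4.84 points among peaks whose −log10 q reached 5. At that q only 38 ZEB1 regions without INTS13 remained, 5 of them at a gene end and 94.7% on chromosome 13. Over the whole lists, the counts at gene starts alone were 814 (5.99%) with INTS13 and 8 (0.573%) without. Starts on chromosome 8 were not used here. The median distance to the nearest start was 32.2 kb with INTS13 and 74.7 kb without. Gene bodies held 58.5% and 52.7% of them. In every width quartile the share at gene ends was above that of ZEB1 regions without INTS13, from 10.2% against 2.65% in the narrowest to 16.1% against 5.08% in the widest. The widest quartile had only 59 regions without INTS13, 3 of them at a gene end. Split further by chromosome group, the order was the same in each quartile of chromosome 13 (3.43% against 1.76% in the narrowest), of chromosome 1 (10.1% against 5.04%) and of the other chromosomes together (13.8% against 2.28%). The smallest of these sets was the widest quartile of chromosome 1, with 3 regions without INTS13.

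For INTS13 the pooled shares at gene ends were alike, 14.4% with ZEB1 and 14.2% without, and this near equality came apart on splitting. Among peaks whose −log10 q reached 5 they were 9.02% and 25.3%, and without INTS13 replicate 2 the difference was -0.329 points. Within width quartiles the regions with ZEB1 were less often at gene ends, at 4.13% against 7.43% in the narrowest and 22.1% against 26.7% in the widest. In the widest quartile the order depended on the chromosome. It was 9.17% with ZEB1 against 15.1% without on chromosome 13, but 26.5% against 22.7% on chromosome 1 and 32.7% against 27.6% on the other chromosomes. In the narrowest quartile of chromosome 13 the shares were 3.75% and 3.69%. Chromosome 13 held 5699 of the 12209 INTS13 regions with ZEB1 and 1.84% of those without. INTS13 regions without ZEB1 had their nearest start at a median of 24.2 kb, against 43.6 kb for those with ZEB1.

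**Figure D4:**
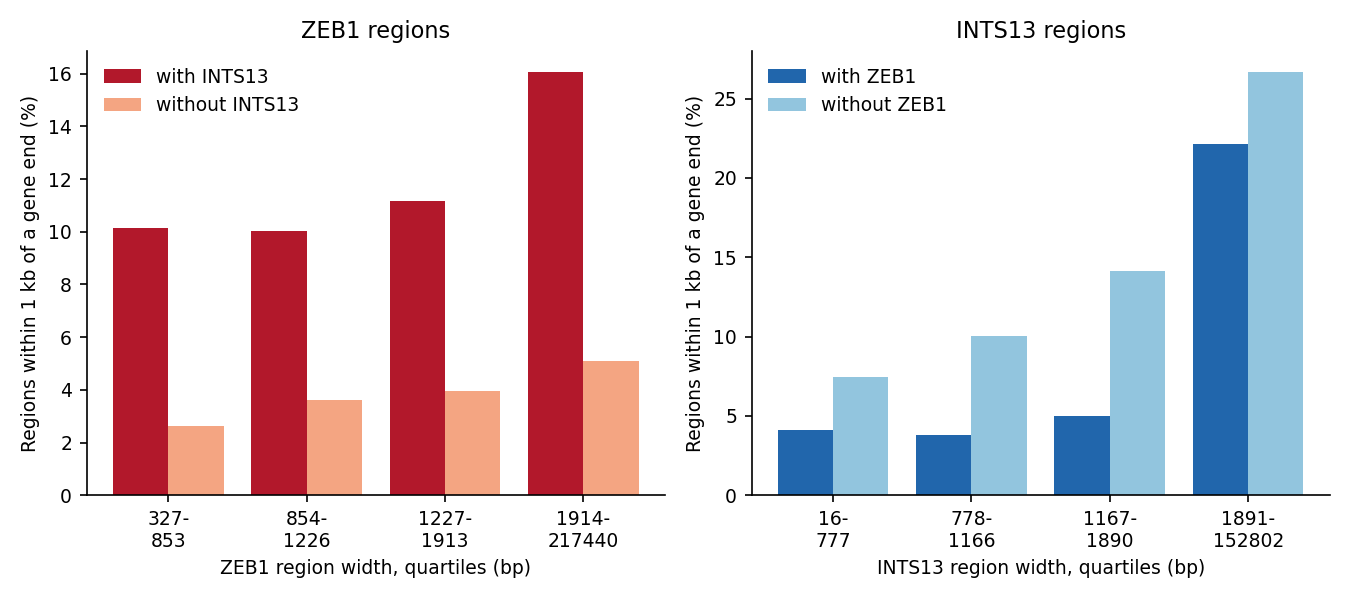
Share of regions within 1 kb of a gene end (%, vertical axes) by quartile of region width (bp), for ZEB1 regions with and without INTS13 (left) and INTS13 regions with and without ZEB1 (right). Bars are single values with no error bar. ZEB1 regions with INTS13 exceed those without in every quartile (16.1% against 5.08% in the widest), whereas INTS13 regions with ZEB1 fall below those without when chromosomes are pooled.

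In genes, INTS13 was broad and ZEB1 was sparse. Of 19974 protein-coding genes, 12729 (63.7%) had an INTS13 region at an end and 756 (3.78%) had a ZEB1 region. All 756 ZEB1 genes also had an INTS13 region at an end. A ZEB1 region with INTS13 lay at an end of 742 genes (3.71%), a ZEB1 region without INTS13 at 24 (0.12%), and an INTS13 region without ZEB1 at 12211 (61.1%). The classes share genes, and 10 genes had ZEB1 regions both with and without INTS13. Among the 15812 protein-coding genes with a listed start, 525 (3.32%) had a ZEB1 region with INTS13 within 1 kb of it and 2 (0.0126%) had one without. For INTS13 regions the counts were 764 (4.83%) with ZEB1 and 9150 (57.9%) without. Of the 742 genes, 25 had such a region outside dense bins. The count depends on how peaks are chosen: it was 44 among peaks whose −log10 q reached 5 and 175 with the 10000 best peaks of each list, and 1506 and 2472 without ZEB1 replicates 1 and 2. The 24 genes became 1 and 21 under the first 2 of these, and 243 and 255 without ZEB1 replicates 1 and 2.

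The strongest shared gene was TLE4, a Groucho-family transcriptional corepressor. Peaks were ranked within their own list by the deposited −log10 p, and ranks refer to the best peak of the region in lists of 416964 and 341913 INTS13 peaks and 52336 and 45291 ZEB1 peaks. At TLE4 the ZEB1 region chr9:79548345-79743379 was 195035 bp wide and lay outside dense bins. Its best peaks ranked 8 and 30 in the INTS13 lists and 18 and 23 in the ZEB1 lists, with folds over background of 9.69, 7.12, 5.70 and 6.11 as the authors' caller gave them. All 4 lists placed it among their first peaks, which is also the rule by which it was chosen. NBPF1, a member of the repeated NBPF family whose copies can share reads, had a region of 14535 bp at chr1:16604598-16619132. It ranked 18 and 28 for INTS13 and 9 and 29 for ZEB1.

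PCDH9, a protocadherin of cell adhesion, followed with INTS13 ranks of 505 and 75 and ZEB1 ranks of 161 and 50 at chr13:66298432-66337148. GPRIN2, whose promoters are printed above, ranked 127 and 116 for INTS13 and 178 and 146 for ZEB1, and like TLE4 it lay outside dense bins. EPHX1, the microsomal epoxide hydrolase, ranked 481 and 781 for INTS13 and 279 and 330 for ZEB1 at chr1:225810525-225814969. RNF187, a ubiquitin ligase, ranked 721 and 1368 for INTS13 and 875 and 644 for ZEB1. These 6 genes differ in function, and strong peaks in all 4 lists are the rule by which they were chosen. One region of 7504 bp at chr19:17332089-17339592 served both ANO8, an anoctamin, and GTPBP3, which modifies mitochondrial tRNA. Its ranks were 203 and 306 for INTS13 and 428 and 780 for ZEB1.

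Another shared region of 12126 bp, chr22:38455804-38467929, served KDELR3, a receptor that returns proteins to the endoplasmic reticulum, and KCNJ4, an inward rectifier potassium channel. It ranked 124 and 356 for INTS13 and 211 and 784 for ZEB1. NDFIP2, an adaptor of NEDD4-family ubiquitin ligases, ranked 141 and 1157 for INTS13 and 631 and 956 for ZEB1. The 12 genes all stayed in the class when any 1 library was left out. They were chosen for strong peaks in every list, and leaving out a library loosens the rule, since peaks of a single list then count as regions. Their staying thus follows largely from the choice and is no measure of robustness.

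Of the 8 genes named for ZEB1 regions without INTS13, TCAF1, a regulator of TRP channels, had the strongest ZEB1 peaks. They are the best of a far smaller class than the 12 above, so the ranks of the 2 groups are not compared. The class itself rests on single libraries: 3 of the 8 stayed in it without INTS13 replicate 1, 7 without INTS13 replicate 2, 5 without ZEB1 replicate 1 and 3 without ZEB1 replicate 2. The TCAF1 region chr7:143846671-143851138 was 4468 bp wide, the widest of the class, and ranked 1352 and 406 in the ZEB1 lists. It held a peak of INTS13 replicate 2 (rank 21679) and none of replicate 1, so the absence of INTS13 there rests on 1 library. RAVER2, an RNA-binding protein, had no INTS13 peak of either list in its region, and ranked 2643 and 14527 for ZEB1. LRRC40 and LRRC7 shared the region chr1:70144078-70144850, ranked 19932 and 14654 for ZEB1 and with a peak of INTS13 replicate 2 at rank 118501. GRIA3, a subunit of AMPA-type glutamate receptors, ranked 33146 and 13909 for ZEB1, and also held a peak of INTS13 replicate 2 alone. RFPL4B held a peak of INTS13 replicate 2, RWDD1 one of replicate 1, and SLITRK6, a neuronal transmembrane protein, none. All 14 genes with such a region and no shared region still had an INTS13 region elsewhere at an end. No protein-coding gene had a ZEB1 region at an end and no INTS13 region at an end.

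The strongest genes with INTS13 and no ZEB1 peak at an end had a worse INTS13 rank percentile of 0.908 to 1.32. CHEK2, a checkpoint kinase, led with ranks of 974 and 3103 at chr22:28741498-28745108. BLM, a DNA helicase, ranked 3828 and 3039. NES, which encodes the filament protein nestin, ranked 4220 and 1763 over a region of 28908 bp. ADORA1, the adenosine A1 receptor, ranked 5165 and 3239, and PLEKHA6 ranked 5169 and 2757. The potassium channel gene KCNN3 ranked 2491 and 4499. KCNJ9, also a potassium channel, shared its region with IGSF8 at ranks of 2945 and 4505. Of these, ADORA1, PLEKHA6, KCNJ9 and IGSF8 had regions free of ZEB1 peaks. The CHEK2 region held a peak of ZEB1 replicate 2 (rank 9184), the BLM region one of replicate 1 (rank 29735), and the NES and KCNN3 regions held peaks of both lists that did not merge.

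**Figure D5:**
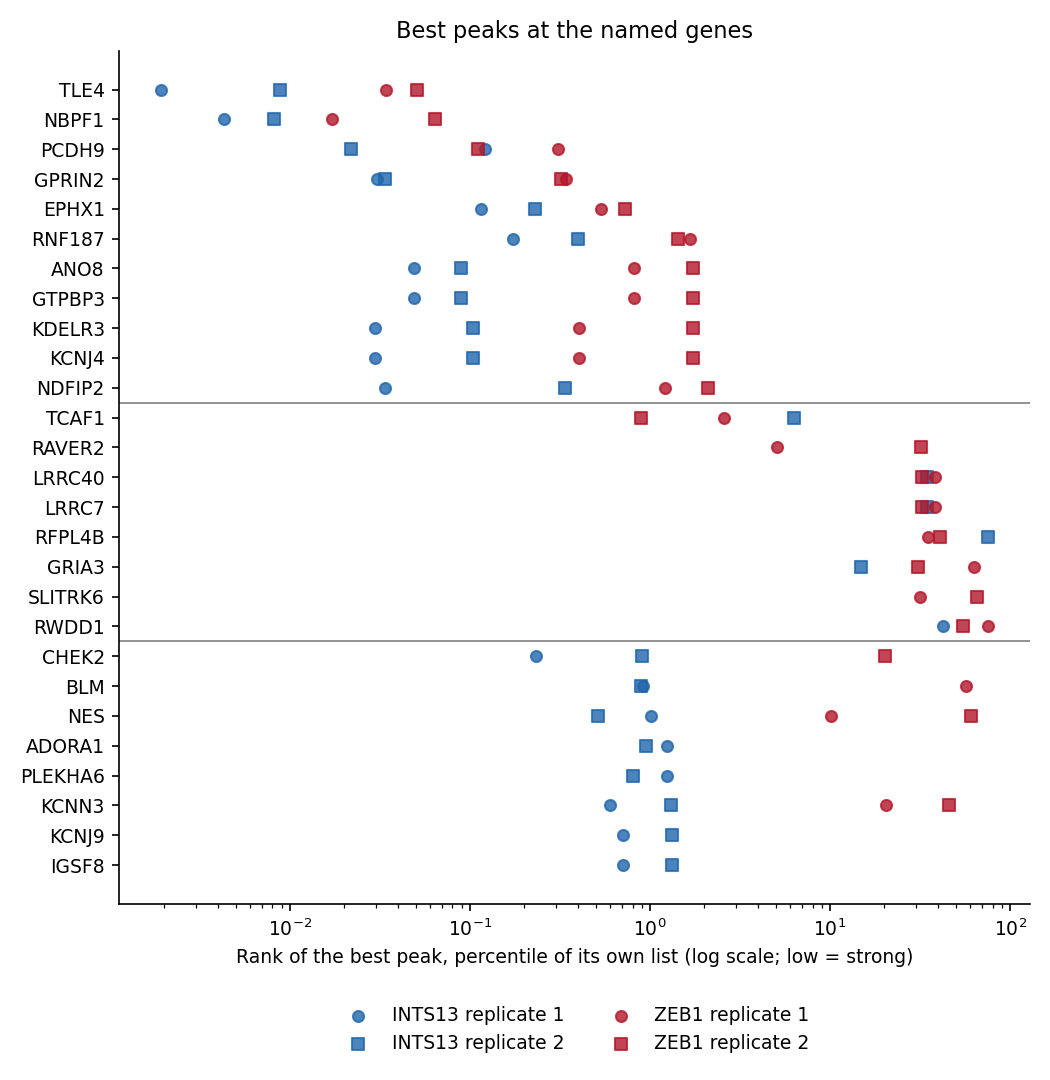
Rank of the best peak at each gene named in the text, as a percentile of its own list (log scale, low is strong), for both replicates of INTS13 (blue) and ZEB1 (red). The upper block has ZEB1 regions with INTS13, the middle block ZEB1 without INTS13 and the lower block INTS13 without ZEB1. Missing symbols mean no peak in that list. The ZEB1 symbols of the upper block lie between 0.0172 and 2.11. The genes were chosen by rank from classes of unequal size, so the blocks are not compared.

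Ranked as regions, the 6 strongest shared regions lay in a single stretch of chromosome 13. They lay between 61743797 and 62191225, with PCDH20 as the nearest protein-coding gene. Of the 6, 3 came within 1 kb of an end of a long non-coding RNA gene, and 2 of these overlapped LINC00358. The region chr13:62080905-62191225 ranked first in all 4 lists, with folds of 16.4 and 13.8 for INTS13 and 12.7 and 10.4 for ZEB1. In the same stretch, chr13:61743797-61961236 was the widest ZEB1 region, at 217440 bp and 328 kb from PCDH20, and ranked 4 and 3 for INTS13 and 2 and 4 for ZEB1. INTS11, HDGF and ZNF609 regions met all 6. The best ZEB1 regions without INTS13 were the one at TCAF1 and 3 more on chromosome 13, such as chr13:65499423-65501347 (ZEB1 ranks 2106 and 1933), which held no INTS13 peak and lay 801 kb from PCDH9.

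The best INTS13 regions without ZEB1 were scattered. A narrow region of 372 bp at chr4:8621078-8621449, 1.325 kb from CPZ, a carboxypeptidase, ranked 56 and 330 for INTS13 and met no ZEB1 peak. In CDHR2, a protocadherin of the brush border, chr5:176581926-176590700 ranked 33 and 331 and held a peak of ZEB1 replicate 1 at rank 9597. A region of 393 bp inside NBPF12 ranked 1154 and 694 and met no ZEB1 peak. The region chr13:74535667-74537793, 229.6 kb from KLF12, ranked 954 and 1143 and held a peak of ZEB1 replicate 1 at rank 2194. The widest region of this class, 40698 bp at chr15:75197939-75238636 on C15orf39, ranked 8268 and 4886. By contrast the widest INTS13 region with ZEB1, chr1:31610497-31763298, ran 152802 bp from HCRTR1 to ADGRB2, and ZEB1 regions covered 41.6% of it.

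Lists of genes tied to ZEB1 or Integrator are given beside the share of all protein-coding genes, 63.7% for an INTS13 region at an end, 3.78% for a ZEB1 region and 61.1% for an INTS13 region without ZEB1. Of 41 protein-coding epithelial genes known to be repressed by ZEB1, 34 (82.9%) had an INTS13 region at an end and 1 (2.44%) had a ZEB1 region. That gene was F11R, a tight-junction adhesion molecule, whose 624 bp region chr1:161020018-161020641 ranked 34637 and 34761 for ZEB1. Of 7 microRNA genes in the same list, 6 had INTS13 and none had a ZEB1 region, against 43.6% and 2.51% of all microRNA genes. MIR200A, MIR200B and MIR429 all lay on chromosome 1, and MIR200C and MIR141 on chromosome 12, so the 6 may not be separate places. A peak of ZEB1 replicate 1 lay at an end of 2 of the 7 (28.6%) and one of replicate 2 at none. CDH1 (E-cadherin), CRB3 (a polarity protein), and ESRP1 and ESRP2 (epithelial splicing factors) had INTS13 and no ZEB1 region. A peak of ZEB1 replicate 1 lay at an end of 11 of the 41 (26.8%) and one of replicate 2 at 2 (4.88%), against 13.3% and 8.48% of all protein-coding genes. The replicates thus differed in direction from those shares. Of 33 mesenchymal genes, 18 (54.5%) had INTS13 and 1 (3.03%) had ZEB1, the calcium-binding protein gene S100A4 (ZEB1 ranks 10654 and 27567).

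Of 39 ZEB1 corepressors and cofactors, 30 (76.9%) had INTS13 and 3 (7.69%) had ZEB1 regions, all shared. They were HDAC1 (a histone deacetylase), SIN3A (a corepressor scaffold) and JUN (an AP-1 factor). At HDAC1 the region chr1:32289718-32291534 ranked 1742 and 1189 for INTS13 and 10167 and 6839 for ZEB1. At JUN, chr1:58782564-58783630 ranked 3436 and 6230 for INTS13 and 7359 and 14328 for ZEB1. SIN3A, on chromosome 15, had weaker ZEB1 peaks, at ranks of 22754 and 30193. JUN and ATF3 were also the 2 of 36 immediate early and EGR or NAB genes with a ZEB1 region, while 29 had INTS13. At ATF3, chr1:212619768-212620323 ranked 27345 and 40976 for ZEB1. The ZEB1 regions at ends of list members all lay in dense bins, and all but that of SIN3A were on chromosome 1. Among 38 Wnt genes, 29 had INTS13 and WNT9A alone had ZEB1, at chr1:227944161-227947367 with ZEB1 ranks of 555 and 2509, the strongest ZEB1 ranks among the members of these lists. No ZEB1 region lay at an end of 35 TGF-beta and BMP genes, 27 genes of Integrator and its partners, 25 polymerase pausing genes or 36 cell cycle genes, lists so short that the overall share of 3.78% would give each about 1. INTS13 lay at 22 (62.9%), 17 (63.0%), 17 (68.0%) and 30 (83.3%) of them, the first 3 near the overall share of 63.7%. None of the list members had a ZEB1 region without INTS13 at an end. In their bodies PATJ held 3 such regions and EHMT1, ATF3 and CDC73 held 1 each.

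Peaks in shared regions ranked higher in every library over the whole lists. In ZEB1 replicate 1 the median rank percentile was 29.0 for peaks in regions with INTS13 and 49.6 without, and in replicate 2 it was 30.9 and 48.6. In INTS13 replicate 1 it was 6.89 for peaks in regions with ZEB1 and 40.6 without, and in replicate 2 it was 4.02 and 43.3. Both libraries of each protein gave the same order. Averaged over the replicates the gap went from -19.2 percentile points to -1.39 among peaks whose −log10 q reached 5 and -4.18 with the 10000 best peaks for ZEB1, and from -36.5 to -4.41 and -0.837 for INTS13. These percentiles still refer to the whole lists, so a gap among the strongest peaks is small by construction. The median −log10 p of ZEB1 peaks was 5.81 with INTS13 and 4.84 without in replicate 1, and 5.49 and 4.97 in replicate 2. For INTS13 it was 9.17 and 5.22 in replicate 1 and 10.1 and 4.79 in replicate 2. Reproducible regions held 32.7% and 39.0% of the peaks of the ZEB1 lists, and 59.6% and 66.7% of the INTS13 lists. Most ZEB1 peaks are therefore in none of the classes.

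Summit distances between the proteins were of the same order as those between ZEB1 replicates. Which was shorter differed between the whole lists and the 10000 best peaks. The median distance from a ZEB1 summit to the nearest INTS13 summit was 606 to 826 bp over the 4 pairs of libraries, against 1387 and 1798 bp between the ZEB1 replicates. The INTS13 lists are longer, and the part of list length in these distances was not tested. The 10000 best peaks differ from the whole lists in strength as well as in length. With the 10000 best peaks of each list, the median distance from ZEB1 to INTS13 was 3502 bp ± 412 (SD, n = 4 pairs), and between the ZEB1 replicates it was 2851 and 3031 bp. The share of those ZEB1 peaks that overlapped an INTS13 peak was 49.0% ± 7.27 (SD, n = 4 pairs), and 35.0% and 38.5% overlapped the other ZEB1 replicate. INTS13 replicates overlapped in 48.7% and 58.3%. At equal list length the 4 ZEB1 to INTS13 shares (40.6% to 56.8%) lay above both shares between the ZEB1 replicates, while the distances lay above as well. Widths were not made equal. With these peaks the median width was 3766.5 bp for INTS13 regions with ZEB1 and 5104 bp for those without. For ZEB1 regions it was 2884.5 bp with INTS13 and 1841.5 bp without. The part of width in the shares was not tested.

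Over the whole lists, the 3 other proteins divided the classes in the same direction. INTS11, the endonuclease of Integrator, had a region at 92.7% of ZEB1 regions with INTS13, 59.5% of ZEB1 regions without, 93.7% of INTS13 regions with ZEB1 and 16.4% of those without. HDGF met 50.1%, 18.6%, 56.4% and 10.4% in the same order. ZNF609 met 40.7%, 26.4%, 53.1% and 1.28%. No region of these 3 proteins met 32.8% of ZEB1 regions without INTS13, against 5.42% of those with it. The INTS11 gap shrank among strong peaks. Between the ZEB1 classes it was 33.3 points over the whole lists, 2.63 among peaks whose −log10 q reached 5 and 2.45 with the 10000 best peaks. Between the INTS13 classes it was 77.2, 24.5 and 2.76 points. Only 38 ZEB1 regions without INTS13 remained where −log10 q reached 5. With the 10000 best peaks the HDGF and ZNF609 gaps were 28.5 and 12.2 points between the ZEB1 classes and 23.4 and 49.8 points between the INTS13 classes. Outside dense bins INTS11 met 54.2% of 288 ZEB1 regions with INTS13 and 9.84% of 61 without. HDGF met 24.7% and 3.28% of them there, and ZNF609 16.3% and 6.56%. Taken over the whole lists, most shared regions of INTS13 and ZEB1 were also regions of a further protein. This was most often INTS11, itself a subunit of Integrator. All these libraries come from 1 cell line and the deposited lists name no control, so signal common to every pulldown was not separated here.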

How the data were processed

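The 4 deposited MACS2 narrowPeak lists (INTS13 and ZEB1, 2 libraries each) were analysed. Per the submitters' processing notes, FastQC, Trimmomatic, Bowtie, Picard and MACS2 were used. Their versions, the control, the thresholds and the build: not given in the sources used here. Contig names match GRCh38. The authors deposited a fold over background (a linear ratio), −log10 p and −log10 q for each peak, and a score equal to the whole part of 10 times −log10 q. The lowest −log10 q was 1.01 to 1.11. Peaks were listed per library, not pooled, and gaps in their numbering show that some were removed before deposit. Read depth is unknown.

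Peaks on chromosomes 1 to 22 and X were merged per protein with Python 3.11.15, pandas 2.3.3 and numpy 2.4.6, and overlap meant 1 bp or more. The code was checked on simulated peaks. Genes came from RefSeq (GRCh38.p14), by symbol or gene ID. Named genes are the 12, 8 and 8 per class with the best worst-list percentile, plus list members with a ZEB1 region at an end. One of the 12 is not reported here. For INTS13 without ZEB1, genes with any ZEB1 peak at an end were passed over. The classes, gene lists and rules were chosen with earlier results of these data known. Nothing in the labels says that the 2 libraries of a protein came from separate cultures, so their spread may be technical. Alternatives were a stricter q, equal list lengths, a larger overlap, bases covered by both lists, each library left out, other gene windows, and leaving out dense bins or chromosomes 1, 13 and X.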

Additional observations from a re-analysis of the deposited data

Results flagged for a closer look

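Peaks on contigs other than chromosomes 1 to 22 and X entered no comparison. INTS13 had 93 such peaks in replicate 1 and 68 in replicate 2, and ZEB1 had 15 and 8, all on alternate contigs. Of the ZEB1 peaks there, 12 of 15 and 7 of 8 overlapped an INTS13 peak. With no control list, they stand out only in exceeding 3, the limit that a count of 0 allows.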

How the results depend on the processing

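No paired analysis was possible because the results come from no test and the replicate numbers only name libraries. Of 76 alternative values for the 7 main results, 19 stayed within the spread over library pairs (or 1.5 times for the gene count). The share of ZEB1 regions with INTS13 (90.7%) became 95.2% at a −log10 q of 5 or more, 63.9% with the 10000 best peaks of each list, 82.9% at an overlap of 50%, 81.3% over bases covered by both lists and 82.5% outside dense bins, and spanned 73.1% to 93.4% with 1 library left out. The lowest values came from leaving out ZEB1 replicate 1 (73.1%) or 2 (78.7%). The share of INTS13 regions with ZEB1 (5.997%) became 8.22%, 46.7% and 3.62% under the first 3 of these, 0.287% outside dense bins and 1.62% without chromosomes 1, 13 and X, and spanned 3.998% to 14.4% with 1 library left out.

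The ZEB1 width difference (381.5 bp wider with INTS13) was 3175 bp at the stricter q, where only 38 ZEB1 regions without INTS13 remained. With the best 10000 it was 1043 bp. It was 199.5, 129, 228 and 209.5 bp at the 50% overlap, the shared bases, outside dense bins and without those chromosomes. With 1 library left out it was 136 to 421 bp. The INTS13 width difference (1050 bp wider with ZEB1) reversed to -699.5 bp at the stricter q and -1337.5 bp with the best 10000, where 90.4% and 71.1% of the regions with ZEB1 lay on chromosome 13. It was 424.5, 755, 1715 and 2054.5 bp under the other 4, and 604 to 1142 bp with 1 library left out.

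The gene-end difference for ZEB1 (8.69 percentage points) was 4.84 at the stricter q, 13.3 with the best 10000, 5.96 over shared bases, 12.9 without the chromosomes, 6.94 within 500 bp and 14.99 within 5 kb of a gene end, and 5.52 to 8.19 with 1 library left out. For INTS13 (0.114) it reversed to -16.3 at the stricter q, -14.0 with the best 10000, -6.21 at the 50% overlap, -0.486 over shared bases and -7.58 within 5 kb. It was 10.3 without the chromosomes and -0.329 (without INTS13 replicate 2) to 3.99 with 1 library left out, so the pooled value has no stable sign. The 742 genes became 44, 175, 25, 339 and 1147 at the stricter q, with the best 10000, outside dense bins, without the chromosomes and within 5 kb, and 742 to 2472 with 1 library left out, where leaving out ZEB1 replicate 1 gave 1506 and leaving out replicate 2 gave 2472. Of 342 further values, 198 stayed, 143 moved and 1 reversed: the dense-bin share of INTS13 regions with ZEB1 minus that without was -2.26 points with the best 10000. Where not stated, the cause was not tested. Depth is unknown, so a missing peak may be signal below the caller's threshold.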

Other observations

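Long genes of chromosome 13 held the most ZEB1 regions in their bodies, and they differed in how many carried INTS13. These genes were chosen after their counts were seen. GPC5, a cell-surface glypican, held 264 ZEB1 regions, 79.2% with INTS13, and its relative GPC6 held 189, 87.3% with INTS13. The transcription factor gene KLF12 held 165 (93.3%) and DACH1, a developmental repressor, held 121 (76.9%). KLHL1 held 62, of which 66.1% carried INTS13. On chromosome 1, CNIH3, an AMPA receptor auxiliary protein, held 58 (98.3%).

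Non-coding genes showed the same imbalance. Of 1911 microRNA genes, 833 (43.6%) had an INTS13 region at an end and 48 (2.51%) a ZEB1 region. Of 154 small nuclear RNA genes, a class that Integrator processes, 46 (29.9%) had INTS13 and 1 (0.649%) had ZEB1. Both shares were below those of protein-coding genes, 63.7% and 3.78%. Of 18177 long non-coding RNA genes, 7807 (42.9%) had INTS13 and 552 (3.04%) had ZEB1.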
